A study of Mus musculus with 4 samples.

Results

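The *Ebf2*-high cluster of the mouse posterior hindbrain is a small set of neurons with a high level of the transcription factor gene *Ebf2*. Its members are nuclei that passed the authors' quality filter, carry the cell type "Neurons" in the deposited table and share 1 of its cluster numbers. The table gives the name *Bnc2*/*Ebf2* to 2 neuronal clusters, and its number, not a gene level, picked the one described here. The other cluster of that name was lower in both genes, at 251 ± 106 UMIs of *Ebf2* and 265 UMIs of *Bnc2* per 1000000 UMIs. The cluster held 67 of 12539 neurons, 0.534% (exact 95% binomial interval 0.414 to 0.678%), and 0.170% of the 39461 kept nuclei of the series. Both genes of its name were present in the counts, since 65 of the 67 nuclei held a UMI (a counted molecule) of *Ebf2* and 62 held UMIs of both. The pan-neuronal genes *Snap25* and *Syt1* were found in 91.0% and 94.0% of its nuclei. The summed level of 5 pan-neuronal genes that include them was lower than in the other neurons in each library. It was 8634 to 11409 UMIs per 1000000 UMIs in the cluster and 12474 to 13316 in the other neurons.

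EBF factors are helix-loop-helix transcription factors that act in the differentiation and migration of neurons. EBF1 is also known from B cells and EBF2 from brown fat cells. They bind DNA as pairs, and the zinc finger proteins encoded by *Zfp423* and *Zfp521* are known partners that modify their action.

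The series compared nuclei of control mice with nuclei of AgRP-Gq;POMC-Gi mice, which carried AgRP-IRES-Cre+/- with hM3DGq fl/- and POMC-Dre+/- with hM4DGi fl/-. The controls, which the labels call WT, were AgRP-IRES-Cre-/- and POMC-Dre-/- by the study's methods and carried hM3DGq fl/- and hM4DGi fl/- too, so both receptor alleles were present without a recombinase. In AgRP-Gq;POMC-Gi mice Cre places an activating designer receptor in AgRP cells and Dre an inhibitory one in POMC cells. *Agrp* UMIs were found in 34.3% of nuclei of the *Ebf2*-high cluster, 50.9% of the other neurons and 4.66% of oligodendrocytes. The annotated gene spans chromosome 8 from 105566698 to 105637393 (GRCm38) and overlaps *Ripor1* and *Ctcf* on the other strand. Whether the counting used strand is not given. These shares are therefore not read as shares of AgRP neurons, and the source of the UMIs was not tested. All mice were 12 to 20 weeks old, both sexes were used, and controls too received CNO, the ligand of the receptors (3 mg/kg, intraperitoneal). Tissue was collected 1 h after CNO, a time without food. It was a piece of hindbrain that holds the area postrema (AP) and nucleus tractus solitarius (NTS), and the study's methods give 2 mice per group with samples of a condition pooled.

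Each group had 2 libraries. The *Ebf2*-high cluster held 15 and 6 nuclei in control replicates 1 and 2 and 10 and 36 nuclei in AgRP-Gq;POMC-Gi replicates 1 and 2, so the last library gave 53.7% of all members. The summed UMIs of the cluster were 108511, 42771, 54087 and 219954 in these libraries, and 1 UMI was therefore worth between 4.55 and 23.4 CPM. A nucleus of the cluster held a median of 5607 UMIs (range 807 to 17885) and 2569 genes, against 8718 UMIs and 3569 genes in the other 12472 neurons. Only 7 of the 134 neuronal clusters had a lower median UMI count. After thinning each nucleus to 2000 UMIs, which left out 4 nuclei of the cluster and 162 other neurons, the medians were 1233 and 1256 genes. Of the barcodes of the 67 nuclei, 1 was also found among the kept nuclei of another library and none occurred in more than 1 nucleus of the cluster.

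Levels are the UMIs of a gene per 1000000 UMIs of the same nuclei of a library (CPM) and are not scaled to gene length, so they are compared between nuclei and not between genes. The clusters were built by the authors from the same counts. Differences between the *Ebf2*-high cluster and other neurons are therefore a description, with no test.

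*Ebf2* was at 1788, 2665, 2163 and 1632 CPM in the *Ebf2*-high cluster in control replicates 1 and 2 and AgRP-Gq;POMC-Gi replicates 1 and 2 (mean 2062 ± 460, SD, n = 4), against 63.7 ± 10.9 CPM in the other neurons. All 4 libraries of the cluster stood above all 4 of the other neurons, and the ratio of the means was 32.4-fold. A nucleus of the cluster held a median of 10 *Ebf2* UMIs (range 0 to 39). The share of nuclei with an *Ebf2* UMI was 97.0% in the cluster, 16% in the other neurons and 0.172% in oligodendrocytes, a cell type not known for this gene whose nuclei held a median of 2460 UMIs. At 2000 UMIs per nucleus the shares in the cluster and the other neurons were 93.7% and 8.51%.

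Among all neuronal clusters *Ebf2* was highest here, and the lowest library (1632 CPM) exceeded the highest library of every other cluster (1515 CPM). The clusters that the table names *Ccdc172*/*Ebf2* (1319 ± 254 CPM), *Rxfp1*/*Ebf2* (1289 ± 212 CPM), *Ebf2*/*Nmu* (1050 ± 243 CPM), *Ebf2*/*Th* (965 ± 154 CPM) and *Ebf2*/*Calb1* (719 ± 259 CPM) followed, and the library range of each of these 5 overlapped that of the next. The level passed 100 CPM in 23 clusters and was under 10 CPM in 81, with a median of 4.44 CPM over the clusters other than the *Ebf2*-high one. Most neurons with *Ebf2* lay elsewhere, for of the 2064 neurons with an *Ebf2* UMI, 3.15% belonged to this cluster. For *Bnc2*, which encodes the zinc finger protein basonuclin 2, the share was 8.61% of 720 neurons.

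**Figure D1:**
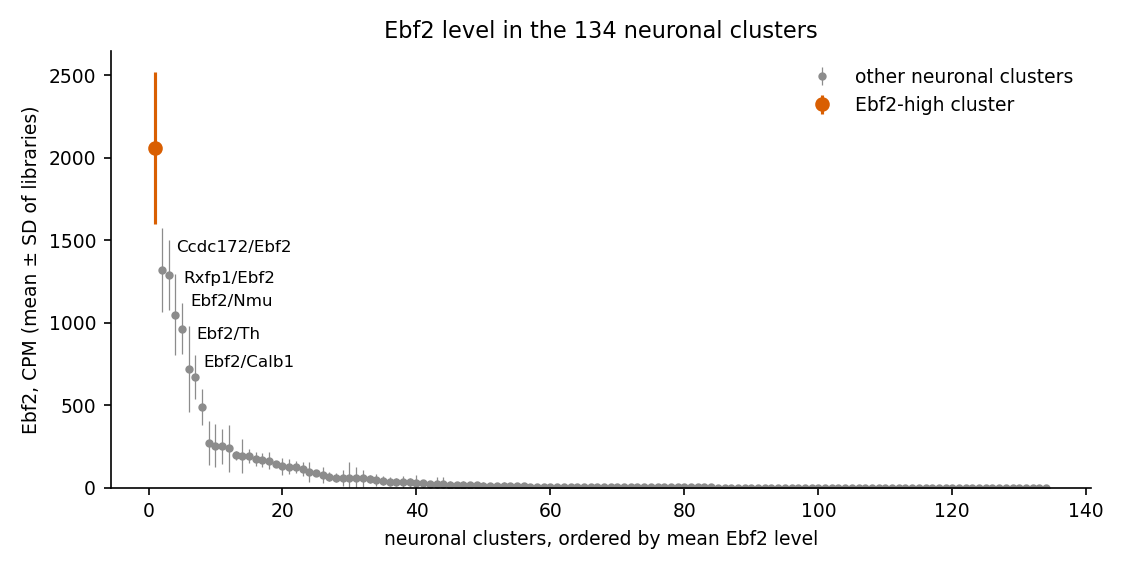
Mean *Ebf2* level (CPM, y axis) in each neuronal cluster, ordered from highest to lowest (x axis), with bars for the SD over libraries. The *Ebf2*-high cluster (orange) stands first at 2062 CPM, and most clusters lie near 0.

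The related genes *Ebf1* and *Ebf3* were high in the same nuclei. *Ebf1* was at 6027, 6593, 7506 and 5283 CPM in the 4 libraries (control 1 and 2, then AgRP-Gq;POMC-Gi 1 and 2, the order used throughout), against a mean of 511 CPM in the other neurons (12.4-fold). *Ebf3* was at 673, 888, 740 and 641 CPM, against 94.9 CPM (7.75-fold). Neither gene overlapped between the *Ebf2*-high cluster and the other neurons in any library.

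Of the 67 nuclei, 63 held UMIs of *Ebf1*, *Ebf2* and *Ebf3* together, and 60 also held *Bnc2*. The cluster was second in the order for *Ebf1*, after *Rxfp1*/*Ebf2*, and second for *Ebf3*, after *Ccdc172*/*Ebf2*. *Ebf4* had 1 UMI in the cluster, against 25.7 CPM in the other neurons. Of the partner genes, *Zfp521* was low, at 6.88 ± 8.81 CPM against 134 CPM in other neurons, and lower in 4 of 4 libraries. *Zfp423* was at 35.6 ± 13.8 CPM against 63.7 CPM, also lower in 4 of 4 libraries, but on 3, 1, 2 and 12 UMIs. In AgRP-Gq;POMC-Gi replicate 2, the library with 12 UMIs, *Zfp423* was at 54.6 CPM against 56.3 CPM.

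The annotated genes inside the *Ebf2* gene were high as well. *Ebf2* lies on chromosome 14 from 67233292 to 67430918 on the plus strand of GRCm38. Within these borders the minus strand carries *Gm6878* (67304888 to 67314711), *1700120O09Rik* (67324894 to 67335928) and *4930438E09Rik* (67332042 to 67397742), which GENCODE classes as antisense or processed transcripts. They were at 85.7 ± 71.7, 176 ± 29.4 and 557 ± 90.5 CPM in the *Ebf2*-high cluster, against 3.74, 5.95 and 21.2 CPM in the other neurons. *Gm6878* rested on 7, 8, 1 and 16 UMIs in the 4 libraries (64.5, 187, 18.5 and 72.7 CPM).

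*4930438E09Rik* was found in 91.0% of the nuclei of the cluster. *1700120O09Rik* and *4930438E09Rik* overlap each other on the same strand, so their counts may be split between them. Whether the counting used strand is not given in the sources used here, and without strand, reads of these genes and of *Ebf2* cannot be told apart. Outside the *Ebf2* gene, *Dpysl2*, *Bnip3l*, *Ppp2r2a* and *Kctd9*, the other genes within 500 kb detected in 5% or more of the nuclei of the cluster, had log2 ratios between -0.37 and 0.46. Of the genes detected in 5% or more of the other neurons only, *Adra1a* had 2 UMIs against 42.6 CPM (log2 ratio -3.74). *Pnma2* had no UMI against 9.56 CPM and was at least 1.36-fold lower.

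**Figure D2:**
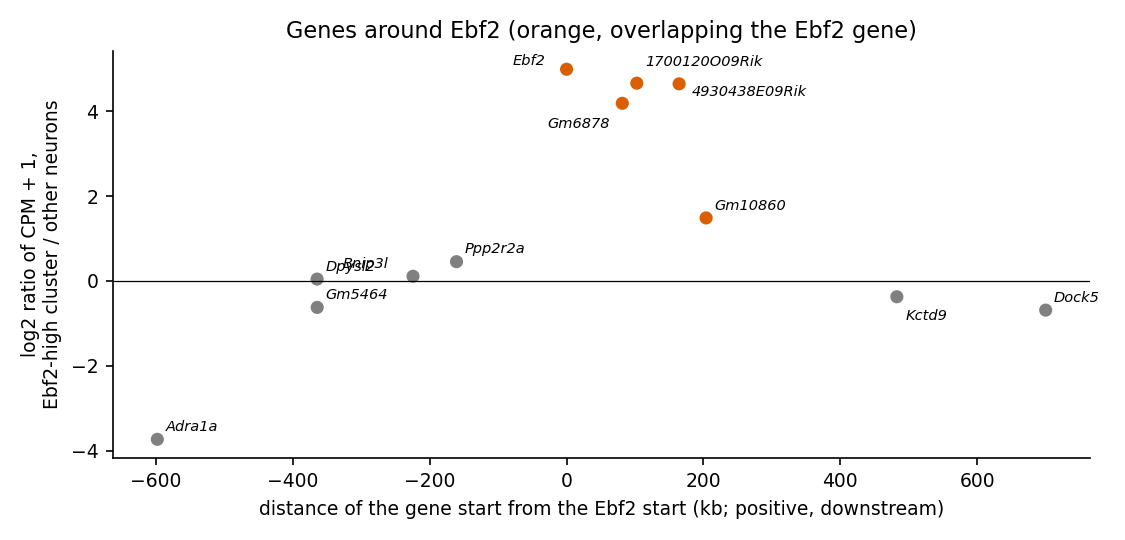
Log2 ratio of the level (CPM + 1) in the *Ebf2*-high cluster over that in the other neurons (y axis) for genes within 500 kb of *Ebf2* with at least 1 UMI in the cluster, placed by the distance of their start from the *Ebf2* start (x axis, kb). *Ebf2* and the 3 genes inside it lie between 4.19 and 5.00, and *Gm10860* (3 UMIs), which reaches past its end, lies at 1.49. The genes outside lie at or below 0.46, the lowest being *Adra1a* at -3.74 (2 UMIs).

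The 15 leading genes of the cluster were those with the largest ratio of mean CPM, with 1 CPM added, among genes found in at least 25% of its nuclei and higher than in the other neurons in 4 of 4 libraries. They were *Ccdc172*, *Bnc2*, *Ebf2*, *Slc38a11*, *1700120O09Rik*, *Chst9*, *4930438E09Rik*, *Otof*, *Gm6878*, *Calcrl*, *Sulf1*, *Cpne4*, *Ccdc187*, *Cck* and *Npy1r*, with log2 ratios from 5.92 down to 3.75. *Bnc2* was at 1152, 1403, 1109 and 1405 CPM, against 20.8 ± 3.35 CPM in the other neurons, and its highest value in another cluster was 518 CPM (a cluster named *Bnc2*/*Ebf3*). It was found in 92.5% of the nuclei (exact interval 83.4 to 97.5%).

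*Ccdc172*, which encodes a coiled-coil protein, had the largest ratio at a low level, 101, 46.8, 203 and 127 CPM against 0.987 CPM. It was detected in 38.8% of nuclei. Of all 115 neurons with a *Ccdc172* UMI, 22.6% were in this cluster, and its level was higher still in the *Ccdc172*/*Ebf2* cluster (188 CPM). *Chst9*, which encodes a sulfotransferase of glycan chains, was at 295, 655, 333 and 432 CPM against 15.9 CPM. *Otof*, which encodes otoferlin, a calcium sensor of vesicle release in inner hair cells, was at 498, 421, 370 and 323 CPM against 15.1 CPM.

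*Cpne4*, which encodes a calcium-dependent membrane-binding copine, was at 1815, 1309, 1960 and 1291 CPM against 98.0 CPM. *Sulf1*, an extracellular enzyme that removes sulfate from heparan sulfate, was at 157, 468, 129.4 and 159 CPM. *Slc38a11*, of a family of amino acid transporters, was at 98.5 ± 61.4 CPM (32 UMIs) and *Ccdc187* at 83.0 ± 9.42 CPM. Both means were highest in the *Ebf2*-high cluster among all neuronal clusters. The next cluster lay within the spread for *Slc38a11* (50.3 ± 71.2 CPM) and was at 41.3 ± 36.6 CPM for *Ccdc187*.

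**Figure D3:**
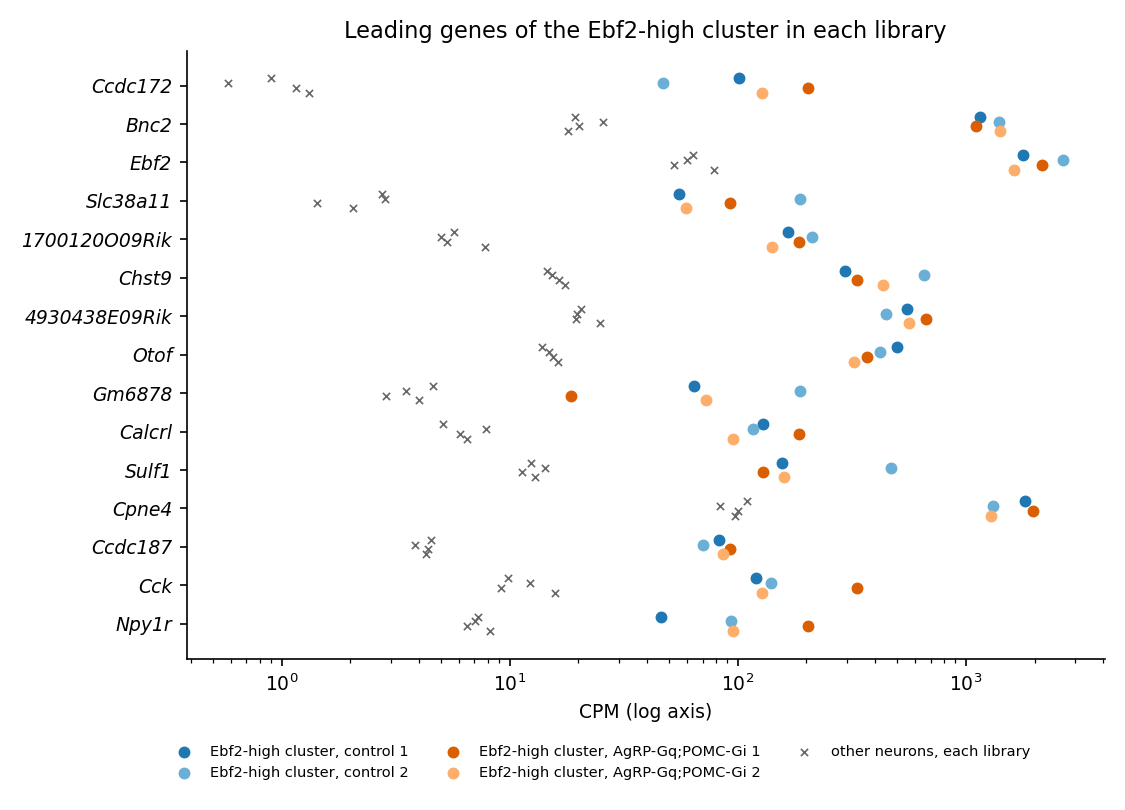
Level of the 15 leading genes in each library (CPM, log axis), with coloured circles for the *Ebf2*-high cluster and grey crosses for the other neurons. In each gene every circle lies to the right of every cross, and *Gm6878* has the circle nearest to the crosses (18.5 CPM). The genes were chosen for a higher level in each library, so this separation is no added evidence.

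Since members of the EBF family were high together, the promoters of the leading genes were searched for the core of the EBF recognition sequence, CCCNNGGG, which reads the same on both strands. The windows were the 250 bases before and 50 after the gene starts of RefSeq on GRCm38.p6, and 8 of the 15 genes had an entry. The core was present in 2 of these genes, *Cck* and *Cpne4* (for *Cpne4* in 1 of its listed starts), and in 13.7% of all 32851 promoters. A stretch around each match is printed 5′ to 3′ on the strand of the gene, with the bases that match in capitals.
*Cck*, chr9:121495786-121495913, minus strand: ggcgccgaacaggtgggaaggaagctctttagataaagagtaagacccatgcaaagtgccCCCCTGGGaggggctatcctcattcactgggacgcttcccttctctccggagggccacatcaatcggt
*Cpne4*, chr9:104569527-104569654, plus strand: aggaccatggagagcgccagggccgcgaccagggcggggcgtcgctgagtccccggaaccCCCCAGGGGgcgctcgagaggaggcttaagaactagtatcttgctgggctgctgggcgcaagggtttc
The capitals begin 159 bases before the start of *Cck* and 68 bases before that start of *Cpne4*, where overlapping matches form a longer run. These matches are a description of the letters in the windows and were not measured as bound sites. The promoters of *Bnc2*, *Ccdc172*, *Slc38a11*, *Calcrl*, *Ccdc187* and *Npy1r* held no match in their windows.

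The genes that stood lowest against the other neurons included a transcription factor, receptors and enzymes. By the corresponding rule (found in at least 25% of other neurons, lower in 4 of 4 libraries), the lowest 10 were *Nfib*, *Adamts6*, *Htr4*, *Ust*, *4921534H16Rik*, *Pde7b*, *Lifr*, *Sorcs1*, *Gm28905* and *Nkain3*. *Nfib*, a nuclear factor I transcription factor, had no UMI in the 67 nuclei against 106 ± 6.59 CPM and 25.9% of nuclei among the other neurons. A count of 0 allows up to 4.48% of nuclei with a UMI (3 of 67 nuclei) and 7.05 CPM over the cluster (3 UMIs), so *Nfib* was at least 15-fold lower. These limits cover counting error only. *Htr4*, a serotonin receptor, also had no UMI and was at least 8.78-fold lower, and *Sorcs1*, a sorting receptor, had 4 UMIs against 423 CPM in the other neurons.

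Of a list of 91 transcription factor genes of hindbrain lineages, more were lower than higher in the cluster. Of the 91, 41 were found in at least 5% of the nuclei of the cluster or of the other neurons. At least 2-fold higher in mean and higher in 4 of 4 libraries were 5 of them (12.2%), against 474 of all 12439 genes so found (3.81%), and 19 were lower by the same rule (46.3%, against 13.7% of all genes). The lower genes include some without a UMI for which the limit for a count of 0 gives no 2-fold bound. Examples are *Lhx5* (6.42 CPM in the other neurons) and *Irx2* (8.19 CPM). The median log2 ratio of the list was -0.94, against -0.12 for all genes.

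The higher ones were *Prrxl1*, *Rorb*, *Lmx1b*, *Tlx3* and *Meis1*. *Prrxl1* (also called *Drgx*), *Lmx1b* and *Tlx3* are known from excitatory neurons of the dorsal hindbrain and spinal cord. *Prrxl1* was at 27.6, 46.8, 92.4 and 86.4 CPM against 5.12 CPM, and *Lmx1b* at 120, 23.4, 73.9 and 90.9 CPM against 15.8 CPM. *Tlx3* rested on 6 UMIs in 5 nuclei. *Rorb*, an orphan nuclear receptor, was at 508 ± 260 CPM against 55.2 CPM but was found in only 34.3% of the nuclei, and *Meis1*, a homeobox gene, at 604 ± 169 CPM against 203 CPM.

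The lower ones included *Nfia* (2 UMIs) and *Meis2*, a homeobox gene at 8.03 CPM against 354 CPM. *Foxp2*, a forkhead factor, and *Maf* had no UMI, against 71.9 and 43.2 CPM, so they were at least 10.2-fold and 6.12-fold lower.

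The transmitter genes were those of glutamatergic neurons. *Slc17a6*, the vesicular glutamate transporter VGLUT2, was at 111, 70.1, 148 and 81.8 CPM, against 75.9 CPM in the other neurons, and was found in 30 of 67 nuclei. Of the 5 GABA and glycine genes, 4 (80%, against 13.7% of all genes) were at least 2-fold lower in 4 of 4 libraries: *Slc32a1*, the vesicular transporter of both transmitters, with 2 UMIs, the GABA-synthesising *Gad1* with 2 and *Gad2* with 4, and the glycine transporter *Slc6a5* with 3. In all, 6 of the 67 nuclei held a UMI of any of these 4 genes, and 3 of them held *Slc17a6* too. *Slc17a6* made up 97.8% of the CPM of *Slc17a6* and *Slc32a1* together, a share of UMIs that is not scaled to gene length.

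*Slc17a7*, *Slc17a8*, *Chat*, *Th* and *Tph2* had no UMI. For each of these 5 genes the mean over the libraries of the other neurons was also under the limit of 7.05 CPM.

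Several neuropeptide genes were high, each in a part of the nuclei. Of 37 genes, 12 were found in at least 5% of nuclei, and 5 of these (41.7%, against 3.81% of all genes) were at least 2-fold higher in 4 of 4 libraries: *Cck*, *Adcyap1*, *Tac1*, *Sst* and *Nppc*. *Cck*, which encodes the satiety peptide cholecystokinin, was at 120, 140, 333 and 127 CPM against 11.8 CPM (15.3-fold), second only to *Rxfp1*/*Ebf2* (209 CPM). *Adcyap1*, the precursor of PACAP, was at 55.3, 46.8, 37.0 and 100 CPM against 12.4 CPM. *Tac1*, the precursor of substance P, was at 64.5, 70.1, 111 and 81.8 CPM against 17.7 CPM.

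*Sst*, which encodes somatostatin, was at 147, 46.8, 129.4 and 54.6 CPM against 30.0 CPM. Its lowest library stood on 2 UMIs but still lay above the other neurons of the same library.

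*Cck* was found in 23 nuclei, *Tac1* in 20, *Sst* in 19 and *Adcyap1* in 24, and 12 of the 67 nuclei had none of them. In oligodendrocytes, at a lower depth, UMIs of these genes were found in 2.35%, 2.78%, 5.77% and 0.886% of nuclei. *Cck* and *Tac1* shared 2 nuclei, and *Tac1* and *Sst* shared 2, whereas *Cck* and *Sst* shared 10 and *Tac1* and *Adcyap1* shared 11. *Calcrl*, found in 23 nuclei, shared 12 with *Cck*, 11 with *Sst* and none with *Tac1*. The median nucleus held 0 UMIs of each of these genes, so a nucleus without a UMI may still express the gene, and the pattern is given as counts with no test.

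*Calcrl*, the receptor subunit for CGRP and adrenomedullin, was at 132 ± 38.2 CPM (from 95.5 to 185 CPM over the libraries) against 6.38 CPM (20.6-fold). *Npy1r*, a receptor of neuropeptide Y, was at 46.1, 93.5, 203 and 95.5 CPM against 7.23 CPM (15.2-fold). Its mean, 110 ± 66.6 CPM, was first among the neuronal clusters, but *Ccdc172*/*Ebf2* lay within the spread at 85.4 ± 66.3 CPM. Its neighbour on chromosome 8, *Npy5r*, starts on the opposite strand 9.06 kb away and was at 39.0 ± 30.4 CPM against 11.2 CPM, higher in 3 of 4 libraries. For *Calcrl* and *Npy1r* every library of the cluster lay above every library of the other neurons. Both are leading genes, chosen for a higher level in 4 of 4 libraries, so this separation is no added evidence.

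Of the 60 receptors of feeding and visceral signals, 25 were found in at least 5% of nuclei, 5 of them higher (20%, against 3.81% of all genes) and 8 lower (32%, against 13.7%) by the rule above. The other 3 higher genes were the delta opioid receptor *Oprd1* (54.2 ± 13.3 against 13.0 CPM), the neurokinin receptor *Tacr3* (43.8 ± 8.55 against 10.7 CPM) and the corticotropin-releasing hormone receptor *Crhr1* (34.4 ± 22.8 against 16.3 CPM). Among the lower genes, the serotonin receptor *Htr2c* was at 87.3 ± 75.0 CPM against 737 CPM, and the orexin receptor *Hcrtr2* had 1 UMI. *Crhr2* was found in 8 nuclei, 11.9% against 0.537% of the other neurons, with 10 of its 12 UMIs in AgRP-Gq;POMC-Gi replicate 2.

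Of 24 glutamate receptor genes 23 were found, 4 higher (17.4%, against 3.81% of all genes) and 4 lower (17.4%, near the 13.7% of all genes) by the same rule. The AMPA receptor subunit *Gria1* (1296 ± 152 against 391 CPM), the NMDA receptor subunit *Grin2a* (1225 ± 128 against 523 CPM) and the metabotropic receptors *Grm7* (4299 ± 436 against 1808 CPM) and *Grm8* (1165 ± 467 against 489 CPM) were higher. The kainate receptor subunits *Grik1* (56.3 ± 39.9 against 360 CPM) and *Grik2* (529 ± 79.8 against 1518 CPM) were lower, as were *Grik3*, with 2 UMIs, and *Grm3*.

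Of 18 GABA and glycine receptor genes 17 were found. Of these, 2 were higher (11.8%, against 3.81% of all genes), among them the GABA-A receptor subunit *Gabra2* (331 ± 164 against 147 CPM), and 4 were lower (23.5%, against 13.7%), among them *Gabrb2* (19.5 ± 26.2 against 155 CPM). The muscarinic receptor *Chrm2* was at 651 ± 211 CPM against 259 CPM, and *Gfra1*, the receptor subunit for the growth factor GDNF, at 385 ± 47.3 CPM against 44.8 CPM. Of the 10 *Hox* genes found, 0 were higher (against 3.81% of all genes) and 3 were lower (30%, against 13.7%), *Hoxc4*, *Hoxd3* and *Hoxd4*, on 1 to 4 UMIs each.

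Ion channel and adhesion genes differed in both directions. Of 47 voltage-gated and pacemaker channel genes, all found, 5 were higher (10.6%, against 3.81% of all genes) and 11 lower (23.4%, against 13.7%) by the same rule. *Kcnh5*, a voltage-gated potassium channel, was at 848, 795, 721 and 709 CPM against 116 CPM and was highest in the *Ebf2*-high cluster. The sodium-activated potassium channel *Kcnt2* was at 469 ± 152 against 129.4 CPM. The small-conductance channel *Kcnn2* was at 44.9 ± 17.4 CPM against 399 CPM, the lowest level of all neuronal clusters.

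The calcium-binding proteins calbindin (*Calb1*) and *Necab1* were at 147 ± 58.7 and 407 ± 82.9 CPM, against 24.5 and 91.5 CPM. Of 64 adhesion and guidance genes, 61 were found, 9 higher (14.8%, against 3.81% of all genes) and 20 lower (32.8%, against 13.7%). The contactin *Cntn3* (1247 ± 64.5 against 319 CPM) and the ephrin receptor *Epha7* (622 ± 90.7 against 130 CPM) were highest in this cluster, as was *Cbln2* (70.7 ± 48.0 against 6.42 CPM), a cerebellin that bridges synapses, though the next cluster reached 1150 CPM of *Cntn3* and 69.3 CPM of *Cbln2*. The contactin *Cntn5* was at 65.4 ± 44.7 CPM against 1250 CPM, and the guidance cue *Sema3e* had no UMI and was at least 9.68-fold lower.

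Of the 6 clusters closest in profile, 4 carry *Ebf2* in their name. Over 10237 genes with at least 10 CPM in all neurons, Spearman's correlation of mean CPM with it was highest for the clusters named *Ebf2*/*Calb1* (0.84), *Ebf2*/*Ankfn1* (0.84) and *Eya1*/*Hs3st4* (0.83), against a median of 0.77 over the other clusters. *Ebf2*/*Th*, *Tafa2*/*Pde1a* and *Rxfp1*/*Ebf2* ranked 4, 5 and 6 (0.82 each), and *Ccdc172*/*Ebf2*, the next in the order for *Ebf2*, ranked 9 (0.81). Genes are not independent replicates. The median UMI count was 5607 in the *Ebf2*-high cluster, 5606 in *Ebf2*/*Calb1*, 7983 in *Ebf2*/*Ankfn1* and 7252.5 in *Eya1*/*Hs3st4*. It was 6283 in *Ebf2*/*Th*, 7746 in *Tafa2*/*Pde1a*, 5792.5 in *Rxfp1*/*Ebf2* and 4371 in *Ccdc172*/*Ebf2*. The part of depth in these correlations was not tested.

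*Bnc2* was at 1267 ± 159 CPM, against 296 ± 207 CPM in *Ccdc172*/*Ebf2*, 158 CPM in *Ebf2*/*Ankfn1*, 91.7 CPM in *Eya1*/*Hs3st4*, 85.8 CPM in *Rxfp1*/*Ebf2*, 84.7 CPM in *Tafa2*/*Pde1a*, 12.0 CPM in *Ebf2*/*Calb1* and 0 CPM in *Ebf2*/*Th*. *Ccdc172* had no UMI in 4 of them and was at 0.986 CPM in *Tafa2*/*Pde1a* and 3.17 CPM in *Rxfp1*/*Ebf2*, but at 188 ± 63.1 CPM in *Ccdc172*/*Ebf2*, against 120 ± 65.1 CPM here. *Nfib*, without a UMI in the *Ebf2*-high cluster, was at 245 CPM in *Ebf2*/*Calb1* and 343 CPM in *Eya1*/*Hs3st4*. It was low in the rest, at 48.7 CPM in *Ebf2*/*Th*, 39.5 CPM in *Ebf2*/*Ankfn1* and 19.5 CPM in *Rxfp1*/*Ebf2*. In *Ccdc172*/*Ebf2* it was at 11.9 CPM and in *Tafa2*/*Pde1a* at 4.79 CPM, against 106 CPM in all other neurons. *Meis2*, at 8.03 CPM here, lay between 2.14 CPM (*Ccdc172*/*Ebf2*) and 222 CPM (*Tafa2*/*Pde1a*) in these clusters. *Th*, the enzyme of catecholamine synthesis, was at 107 CPM in *Ebf2*/*Th* and 67.0 CPM in *Rxfp1*/*Ebf2*.

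Some genes were shared. *Rxfp1*/*Ebf2* lay within the spread of the libraries for *Ebf1* (6755 ± 1053 CPM), *Cck* (209 ± 79.7 CPM), *Calcrl* (137 ± 55.2 CPM) and *Rorb* (339 ± 198 CPM), whereas *Npy1r* was at 11.7 ± 19.5 CPM and *Otof* at 70.9 ± 60.9 CPM there, against 110 ± 66.6 and 403 ± 74.9 CPM in the *Ebf2*-high cluster. *Ebf2*/*Calb1* lay within the spread for *Npy1r* (81.9 ± 44.3 CPM), *Sst* (87.6 ± 26.7 CPM) and *Prrxl1* (78.3 ± 30.1 CPM). *Sst*, at 94.5 ± 51.3 CPM in the *Ebf2*-high cluster, was higher in *Rxfp1*/*Ebf2* (204 ± 61.5 CPM). *Adcyap1*, at 59.8 ± 27.9 CPM in the *Ebf2*-high cluster, lay between 7.62 CPM (*Rxfp1*/*Ebf2*) and 80.4 CPM (*Eya1*/*Hs3st4*) in these clusters, with 65.9 CPM in *Ebf2*/*Th*. *Tac1*, at 81.9 ± 20.7 CPM in the *Ebf2*-high cluster, was at most 35.5 CPM in the other 7 clusters. *Lmx1b* lay between 45.8 and 135 CPM in them. *Calb1* (147 ± 58.7 CPM here) was higher in *Ebf2*/*Calb1* (282 ± 31.3 CPM) and *Rxfp1*/*Ebf2* (272 ± 79.1 CPM), and at most 101 CPM in the rest. *Ebf2*/*Calb1* and *Ccdc172*/*Ebf2* were close for *Necab1* (355 and 361 CPM, 407 ± 82.9 CPM here) and *Gfra1* (420 and 380 CPM, 385 ± 47.3 CPM here). The rest were at most at 254 CPM of *Necab1* and 76.2 CPM of *Gfra1*. *Ccdc172*/*Ebf2* lay within the spread for *Ebf3* (805 ± 217 CPM), *Npy1r*, *Sst* (97.1 ± 54.8 CPM), *Adcyap1* (70.2 ± 38.4 CPM) and *Prrxl1* (63.3 ± 36.3 CPM), whereas it had no UMI of *Calcrl* and was at 11.5 ± 17.8 CPM of *Cck* and 59.8 CPM of *Chst9*.

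**Figure D4:**
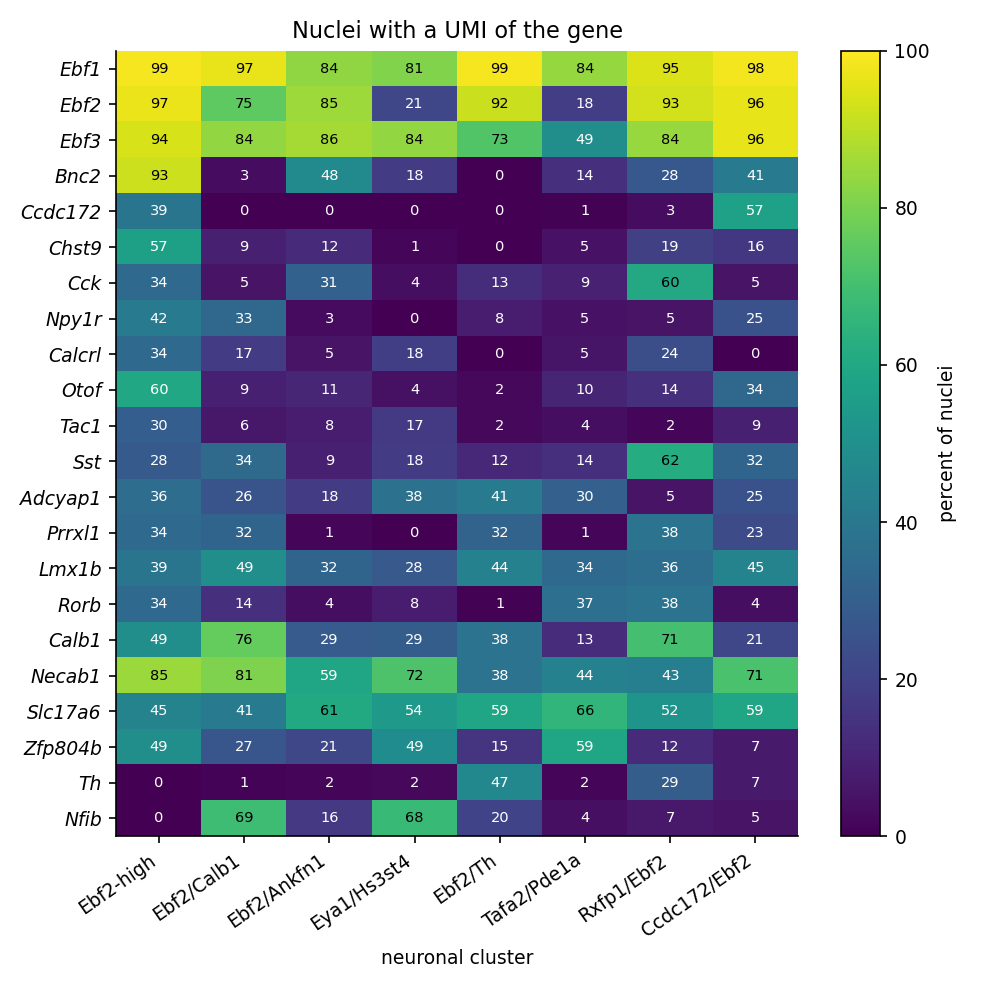
Percent of nuclei with a UMI of each gene (colour and printed value) in the *Ebf2*-high cluster, the 6 clusters closest in profile from left to right (*Ebf2*/*Calb1* to *Rxfp1*/*Ebf2*) and *Ccdc172*/*Ebf2*. *Bnc2* was found in 92.5% of nuclei of the *Ebf2*-high cluster and in at most 47.6% of the others. *Nfib* was found in 0% of nuclei of the *Ebf2*-high cluster and in 4.27% to 68.8% of the others.

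The number of nuclei did not separate the groups. The *Ebf2*-high cluster made up 0.607% (exact 95% interval 0.340 to 1.00%) and 0.219% (0.0805 to 0.477%) of neurons in control replicates 1 and 2, and 0.271% (0.130 to 0.497%) and 0.990% (0.694 to 1.37%) in AgRP-Gq;POMC-Gi replicates 1 and 2. The replicates of each group differed more than the group means, 0.413 ± 0.274% and 0.630 ± 0.509% (SD, n = 2), and an exact two-sided permutation test gave p = 0.667, where 2 against 2 libraries cannot go below 0.333. In edgeR the log2 difference was 0.62 ± 0.81 (SE, adjusted p = 0.814), and 0 of the neuronal clusters (0%) were called, and 8 had an unadjusted p under 0.05. The log2 difference was -0.59 when AgRP-Gq;POMC-Gi replicate 2 was left out.

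Within the cluster, few genes passed the test between groups. Of 10158 genes detected in 5% or more of its nuclei, 3 (0.0295%) had an adjusted p under 0.05 in edgeR, and 302 (2.97%) had an unadjusted p under 0.05. *Xist*, the RNA that coats the inactive X chromosome of females, and its antisense gene *Tsix* were lower in AgRP-Gq;POMC-Gi, and *Zfp804b*, a zinc finger gene, was higher. DESeq2 called 0 genes, with 16 at an unadjusted p under 0.05.

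*Xist* had 157, 16, 11 and 0 UMIs in the cluster, that is 1447, 374, 203 and 0 CPM (edgeR log2 fold change -4.21 ± 0.48, SE, adjusted p = 2.81e-14). The SE is derived from the F statistic and is not the spread of the libraries. *Tsix* had 52, 4, 1 and 0 UMIs (log2 fold change -6.06 ± 0.79, adjusted p = 6.59e-11). The genes overlap on chromosome X, and their reads cannot be told apart without strand. Most UMIs came from control replicate 1, and without that library the adjusted p was 0.0464 for *Xist* (log2 fold change -2.84) and 0.922 for *Tsix* (-4.15). Leaving out AgRP-Gq;POMC-Gi replicate 2 gave 0.0715 (-2.39) and 0.0940 (-4.15). Both calls were kept without control replicate 2 (-4.96 and -6.75) or AgRP-Gq;POMC-Gi replicate 1 (-9.87 and -8.31). A fit without 1 library leaves a group with a single library, which is assumed to vary like the rest. Without AgRP-Gq;POMC-Gi replicate 1 that library had 0 UMIs of both genes, so the size of those differences has no bound.

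The calls of *Xist* and *Tsix* went together with Y-linked transcripts. In the 4 libraries 14 of 15, 2 of 6, 1 of 10 and 0 of 36 nuclei of the cluster held an *Xist* UMI, and 1, 3, 8 and 30 held a UMI of the Y-linked genes *Uty*, *Ddx3y*, *Kdm5d* or *Eif2s3y*. In the other neurons *Xist* was found in 66.7%, 48.4%, 64.8% and 2.19% of nuclei and a Y-linked gene in 30.1%, 45.0%, 30.5% and 89.3%. AgRP-Gq;POMC-Gi replicate 2 was thus almost free of *Xist* in all neurons, whereas in AgRP-Gq;POMC-Gi replicate 1 *Xist* was found in 1 of 10 nuclei of the cluster, with 11 UMIs, and in 64.8% of the other neurons. The parts of group and of sex in these calls cannot be told apart.

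*Zfp804b* had 48, 27, 123 and 248 UMIs, that is 442, 631, 2274 and 1128 CPM (edgeR log2 fold change 1.63 ± 0.35, SE, adjusted p = 0.0134). It was found in 7 of 15, 2 of 6, 7 of 10 and 17 of 36 nuclei, and the richest nucleus of each library held 23, 22, 62 and 45 of the UMIs. Over the cluster, 34 nuclei held none, 11 held 1 to 4 and 22 held 5 or more.

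The call of *Zfp804b* depended on the processing. The adjusted p was 0.981 without the 10% of nuclei with the most UMIs (log2 fold change 1.01), 0.423 with control replicate 1 left out (1.45), 0.994 with AgRP-Gq;POMC-Gi replicate 1 left out (1.20), 0.158 with the gene filter of edgeR (1.67), 0.296 with a replicate block (1.61) and 0.999 in DESeq2 (1.66). The call was kept without TMM factors (adjusted p = 0.00408), with no gene filter (0.0156) and without control replicate 2 (0.0267) or AgRP-Gq;POMC-Gi replicate 2 (0.00961). In the other neurons *Zfp804b* was at 617, 649, 694 and 595 CPM. The group difference in the *Ebf2*-high cluster exceeded that in the other neurons by 1.5 (log2), with an adjusted p of 0.758.

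**Figure D5:**
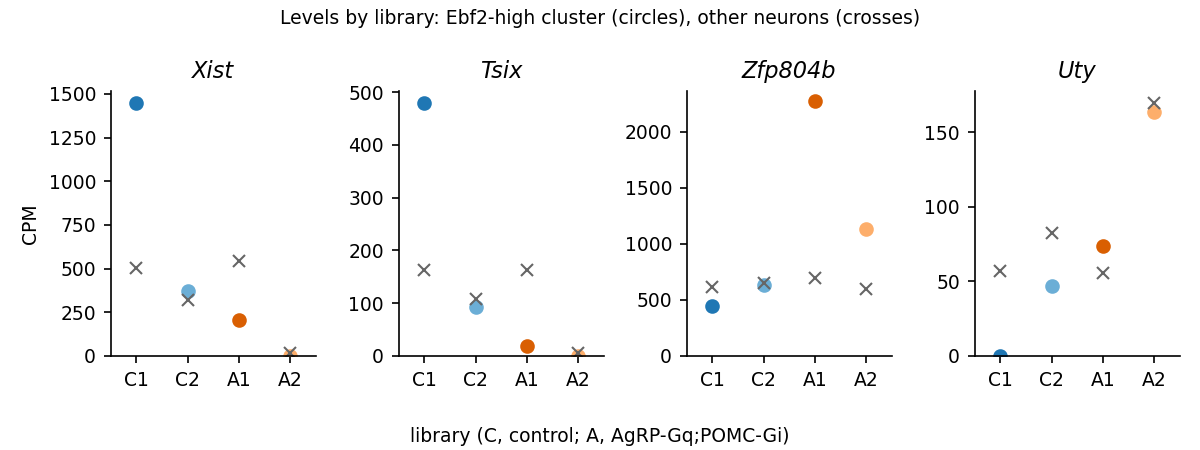
Levels of *Xist*, *Tsix*, *Zfp804b* and the Y-linked *Uty* (CPM) in each library, control replicates 1 and 2 (C1, C2) and AgRP-Gq;POMC-Gi replicates 1 and 2 (A1, A2), with circles for the *Ebf2*-high cluster and crosses for the other neurons. *Xist* goes from 1447 CPM in C1 to 0 in A2 in the cluster, and *Zfp804b* reaches 2274 CPM in A1.

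Below the threshold, the genes with the smallest p in the upward direction were *Gpc5* (1, 1, 6 and 33 UMIs), *A330008L17Rik* (3, 0, 3 and 43), *Uty* (0, 2, 4 and 36) and *Pdlim7* (4, 3, 21 and 25), with adjusted p from 0.219 to 0.986. In the downward direction they were *Ndst4* (21, 17, 1 and 22 UMIs), *Tor1aip1* (7, 11, 0 and 6) and *Gm15155* (12, 17, 1 and 16), with adjusted p from 0.735 to 0.986. *Gpc5* encodes a heparan sulfate proteoglycan and *Ndst4* an enzyme of heparan sulfate synthesis.

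The group difference in the *Ebf2*-high cluster was also set against that in the other neurons. Of 10158 genes, 2 (0.0197%) had an adjusted p under 0.05, *Xist* (adjusted p = 0.00662) and *Tsix* (0.0201), and 321 had an unadjusted p under 0.05. The size of both differences depended on which library was left out, with the same assumption on the single library. For *Xist* the log2 difference to the other neurons, -2.91 with all libraries, became -11.9 or -2.71 on dropping AgRP-Gq;POMC-Gi replicate 1 or 2. On dropping control replicate 1 or 2 it became -1.96 or -3.46. For *Tsix*, at -4.71 with all libraries, the values in this order were -10.5, -4.52, -3.21 and -5.18. The -11.9 and -10.5 rest on AgRP-Gq;POMC-Gi replicate 2 alone for that group. It had 0 UMIs of both genes in the cluster, so the size of these differences has no bound.

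None of the genes that define the cluster was called between groups. The clusters were built from the same counts, so a nucleus that lost these genes could fall outside the cluster. Their levels within it are thus partly held alike by membership. *Ebf2* differed by -0.23 ± 0.31, *Ebf1* by -0.01 ± 0.29, *Ebf3* by -0.17 ± 0.35 and *Bnc2* by 0.01 ± 0.33 (log2 fold change ± SE of AgRP-Gq;POMC-Gi over control; adjusted p from 0.986 to 0.996). Of *Cck*, *Tac1*, *Sst*, *Adcyap1*, *Calcrl*, *Npy1r* and *Npy5r*, the difference was largest in *Npy1r*, 1.04 ± 0.63 (adjusted p = 0.986). An adjusted p of this size does not show that levels were equal.

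Of the 10 immediate early genes (IEGs) that the study used as a readout of neuronal activity, 3 were found in enough nuclei to be tested, *Homer1*, *Btg1* and *1700016P03Rik*, and 0 were called, where 0.0295% of all genes tested were called. None of the 3 had an unadjusted p under 0.05 in edgeR (2.97% of all genes did), but 1 IEG did without the TMM factors, with no gene filter and without control replicate 2. *Homer1*, a scaffold of glutamate receptors, had 1, 2, 4 and 16 UMIs (9.22, 46.8, 74.0 and 72.7 CPM), with an edgeR log2 fold change of 1.79 ± 0.92 (SE, adjusted p = 0.986). *Btg1* had 5, 3, 3 and 9 UMIs. *Fos*, *Fosl2* and *Gem* had no UMI in the 67 nuclei, which allows up to 4.48% of nuclei with a UMI, against 4.25% of the other neurons for *Fos*.

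RNA of other cell types was present. The summed level of 5 markers of choroid plexus and ependyma was 9.22, 655, 18.5 and 859 CPM in the cluster and 5.68, 1011, 11.4 and 585 CPM in the other neurons, high in both replicates numbered 2 and almost all of it *Ttr*, the gene of transthyretin. The 5 oligodendrocyte markers summed to 230, 444, 148 and 209 CPM in the cluster and 274, 229, 134 and 170 CPM in the other neurons. Of the 4 of them tested between groups in edgeR, 0 were called and 1 was lower at an unadjusted p under 0.05. Of the 4 precursor markers 2 had a UMI, and none had one in the AgRP-Gq;POMC-Gi libraries. Of the choroid plexus and ependyma markers *Ttr* alone was tested between groups in edgeR. It was not called, with a log2 fold change of 1.06 and an unadjusted p under 0.05, and it was called without control replicate 2. The part of this RNA in the other calls was not tested.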

How the data were processed

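Nuclei of the posterior hindbrain were measured in 4 libraries, 2 per group. From 10x Genomics 3′ libraries mapped to GRCm38, the authors deposited UMI counts per gene and barcode from Cell Ranger 7.0.0, processed further in Seurat 4.3.0 (versions from the submitters' processing notes). Strand use in counting is not given in the sources used here. Their table holds deposited UMI and gene totals, the percent of mitochondrial counts, clusters, cell types and which barcodes passed their filter (at least 800 UMIs, 500 genes, at most 10% mitochondrial counts, doublets called by the authors). Its UMI and gene totals equal those of the matrices in 44303 of 44303 barcodes. Its columns of an IEG score and category per cluster hold the authors' comparison between groups and were not used.

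Clusters were taken from that table and not computed again. Levels are summed UMIs of a gene per 1000000 UMIs (CPM). Groups were compared in R 4.3.3 by edgeR 4.0.16 (quasi-likelihood F test, TMM normalisation, Benjamini-Hochberg adjustment) over genes detected in 5% or more of the 67 nuclei. Each SE of an edgeR log2 difference is its absolute value divided by the square root of its F statistic. It does not show the spread of the libraries. The difference to the other neurons was fitted with a term per library, and nuclei per cluster with the neurons of each library as its size. DESeq2 1.42.0, no TMM factors, other gene filters, a replicate block, leaving out each library and leaving out the 7 nuclei with the most UMIs were alternatives. Shares of single libraries carry exact (Clopper-Pearson) binomial intervals at 95%, which cover counting error only. Where libraries come from pooled mice, the spread between libraries may be technical. *Xist* was found in 64.8% and 2.19% of the other neurons in AgRP-Gq;POMC-Gi replicates 1 and 2, so these did not hold the same mix by sex. With so few libraries, edgeR draws the variance of a gene largely from other genes. Its p-values therefore do not measure the library spread of that gene alone.

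The named genes were the 15 leading and 10 lowest genes, genes past the threshold or the 5 smallest p in a direction, the 3 closest clusters and the clusters named *Ebf2*/*Ankfn1*, *Ebf2*/*Th* and *Rxfp1*/*Ebf2*, and list genes by level and ratio. *Tafa2*/*Pde1a* and *Ccdc172*/*Ebf2* were added after their values were seen. Of 478 list genes all were found, 1 under another symbol. Members, lists and rules were chosen with earlier results of these data known. The classes of nuclei by *Zfp804b* UMIs, the sex-linked counts, the nuclei shared between genes and the genes around *Ebf2* were chosen after their values were seen. Positions are those of GENCODE M21 (32235 of 32285 genes matched by identifier), and promoters those of RefSeq. Python 3.11.15, pandas 2.3.3, numpy 2.4.6, scipy 1.17.1 and matplotlib 3.10.9 made the tables and plots. Some genes of the lists are counted but not reported here by name.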

Additional observations from a re-analysis of the deposited data

Results flagged for a closer look

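The difference between groups in *Xist* was larger in the *Ebf2*-high cluster than in the other neurons by -2.91 on the log2 scale, and that in *Tsix* by -4.71, by the test of this difference itself in edgeR. In the other neurons *Xist* was at 503, 318, 542 and 16.3 CPM in control replicates 1 and 2 and AgRP-Gq;POMC-Gi replicates 1 and 2, and in the *Ebf2*-high cluster at 1447, 374, 203 and 0 CPM. A Y-linked UMI was found in 1 of 15, 3 of 6, 8 of 10 and 30 of 36 nuclei of the cluster. The parts of group and of sex cannot be told apart. The 2 groups of libraries hold too few samples for a search for single libraries far from the rest.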

How the results depend on the processing

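*Ebf2* stayed highest of the neuronal clusters under 6 of 6 alternatives. Leaving out a library could not change this order, since the lowest library of the cluster exceeded the highest of every other cluster. The mean was 1861 to 2205 CPM when a library was left out, and the *Slc17a6* share was 96.7 to 100%. Of the 15 leading genes, 12 to 15 stayed without a library and 7 with a detection minimum of 50%. The 3 genes called between groups became 0 with the gene filter of edgeR (43 of 1571 genes at an unadjusted p under 0.05) and 0 with DESeq2 (16), and 1 to 7 when a library was left out (7 without control replicate 1, of which 1, *Xist*, is among the 3, 5 without control replicate 2, with all 3 among them, and 2 and 1 of the 3 without AgRP-Gq;POMC-Gi replicates 1 and 2). The 2 genes whose difference departed from the other neurons became 1 with that filter, 0 without the library term and 0 to 2 when a library was left out. The cause was not tested. No IEG was called under the alternatives that tested any, and the gene filter of edgeR left none to test. The log2 difference in the number of nuclei ran from -0.59 to 1.51 when a library was left out, and reversed without AgRP-Gq;POMC-Gi replicate 2.

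What libraries of the same replicate number share is not given beyond the label. The choroid plexus and ependyma markers were at 655 and 859 CPM in the cluster in the libraries numbered 2, against 9.22 and 18.5 CPM in those numbered 1. With the replicate number as a block, 2 genes were called (*Xist* and *Tsix*), 0 IEGs were called, the adjusted p of *Zfp804b* was 0.296, and the log2 difference in nuclei was 0.49. Deviations of same-numbered libraries correlated at -0.05 over 1987 genes. With 6 nuclei in control replicate 2, 1 UMI was worth 23.4 CPM there, which limits every value of genes with few UMIs.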
